A study of Mus musculus with 12 samples.

Results

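Dusp1, Dusp4, Dusp5, Dusp6, Gadd45a, Gadd45b, Gadd45g, Sertad1, Btg2 and Cdkn1a are early feedback genes of MAP kinase signalling and growth arrest. They were selected by gene name, with the rows of each name summed, and all 10 were found among 55678 gene names. Each of the 10 passed the filter for testing, a level of 1 TPM or more (a length-corrected share of all transcripts in a library) reached in 3 or more of the 12 libraries, which left 16423 genes. The group was put together with results of these data known: Sertad1 in B6 and Gadd45a in BALB/c had been among the genes of lowest p for chronic stress. Values for stress against control are therefore given as a description. The number of genes that limma called there is printed only beside the share over all genes. Test results rest on the contrasts between strains, which share libraries with the stress contrasts and so are not independent of the choice.

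RNA came from 1.5 mm punches of the medial prefrontal cortex of mice aged 9 to 10 weeks, taken after behavioural testing. C57BL/6JmsSlc mice, called B6 here, were set against BALB/cCrSlc mice, called BALB/c, both inbred strains, with no transgene or drug named in the labels. Mice under chronic restraint stress (CRS) were held in polyethylene restrainers for 6 h per day on 21 days, and controls were handled without restraint. Each of the 4 groups had 3 libraries, numbered 2, 3 and 9 in B6 controls, 12, 13 and 14 in B6 CRS, 5, 9 and 10 in BALB/c controls, and 12, 13 and 15 in BALB/c CRS. Values are listed in that order throughout. The sex of the mice and the delay between the last restraint and tissue collection are not stated in the sources used here. The labels number the libraries within a group, and nothing states that each number is a separate mouse, so p-values measure the spread between these samples.

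MAP kinases such as ERK, JNK and p38 are switched on by phosphorylation and switched off by dual-specificity phosphatases, the DUSP proteins. Several of the Dusp genes are themselves transcribed within minutes of ERK activation, which makes them negative feedback genes and, in the brain, readouts of recent neuronal activity. The GADD45 proteins bind the kinase MEKK4 and take part in DNA repair and demethylation. SERTAD1, BTG2 and the CDK inhibitor p21, encoded by Cdkn1a, act on the cell cycle in dividing cells, and in neurons the same genes respond to activity, DNA damage or stress hormones.

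Early response genes are commonly switched on through cAMP response elements, CREs, and serum response elements built around a CArG box. The 250 bases before the transcription start were searched for 9 of the 10 genes in RefSeq (GRCm38.p6), Dusp4 being the gene not matched. Promoters of 3 genes are shown because they hold a full CRE or CArG box; Dusp1 and Btg2 are also the 2 genes whose levels ran closest together across libraries. Capitals mark matches to a CRE (TGACGTCA), a CRE half-site (TGACG, also contained in the full CRE), a CArG box and an EGR site (GCGNGGGCG), all searched on both strands and written 5′ to 3′ on the gene's strand.
Dusp1, chr17:26508473-26508722, minus strand: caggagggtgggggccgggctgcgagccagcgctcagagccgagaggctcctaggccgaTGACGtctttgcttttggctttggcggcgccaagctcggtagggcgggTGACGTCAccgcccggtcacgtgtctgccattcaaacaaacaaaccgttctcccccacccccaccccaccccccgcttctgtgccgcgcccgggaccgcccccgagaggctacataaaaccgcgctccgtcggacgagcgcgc
Btg2, chr1:134079156-134079405, minus strand: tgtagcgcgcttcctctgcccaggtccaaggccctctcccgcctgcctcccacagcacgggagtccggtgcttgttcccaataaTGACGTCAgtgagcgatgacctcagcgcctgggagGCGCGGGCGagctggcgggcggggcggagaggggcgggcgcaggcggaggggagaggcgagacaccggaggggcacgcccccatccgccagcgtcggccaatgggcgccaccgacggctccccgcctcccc
Dusp5, chr19:53528895-53529144, plus strand: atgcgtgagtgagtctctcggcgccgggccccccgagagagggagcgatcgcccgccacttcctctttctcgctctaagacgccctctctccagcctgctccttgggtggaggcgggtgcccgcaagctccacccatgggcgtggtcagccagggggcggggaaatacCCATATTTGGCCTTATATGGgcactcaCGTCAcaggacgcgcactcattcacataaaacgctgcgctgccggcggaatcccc
In Dusp5 the half-site reads CGTCA, being on the other strand. The full CRE lay at positions -143 to -136 in Dusp1 and -166 to -159 in Btg2, counted back from -1 at the base before the start. Dusp5 held 2 CArG boxes end to end, at -82 to -73 and -72 to -63. Among 32851 windows of this length over all genes, 1.55% held a full CRE, 1.47% a CArG box, 17.8% a CRE half-site and 4.70% an EGR site. Apart from the 3 genes shown, Gadd45b held an EGR site and no other of the 9 genes held any of these motifs. None of the 9 held an AP-1 site (TGANTCA), found in 6.75% of all windows. These are matches of letters and not measured binding.

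Every library summed to 1000000 TPM, so read depth is unknown and precision rests on the spread between libraries. BALB/c CRS 12 had 3.97% of TPM in the ribosomal RNA gene Rn18s-rs5, against 0.0307% to 0.169% in the other libraries. Cortical tissue was present in all 12: the 6 excitatory neuron markers, Slc17a7 among them, summed to 513 to 1360 TPM in B6 and to 1007 to 1178 TPM in BALB/c, and none was at 0. Striatal markers varied among the B6 libraries. The 9 genes summed to 233 to 2961 TPM in B6 controls, 1031 to 2425 TPM in B6 CRS, 135 to 417 TPM in BALB/c controls and 153 to 203 TPM in BALB/c CRS. The 5 myelin genes summed to 2302 to 8843 TPM in B6 and to 443 to 2840 TPM in BALB/c. The astrocyte markers summed to 358 to 538 TPM in B6 controls and 485 to 534 TPM in B6 CRS. In BALB/c they summed to 326 to 354 TPM in controls and 293 to 428 TPM under CRS. Over all 12 libraries the inhibitory neuron markers summed to 661 to 1123 TPM, oligodendrocyte precursors to 12.1 to 24.0, microglia to 155 to 201, endothelium to 52.6 to 69.97, choroid plexus to 8.31 to 56.8, meningeal fibroblasts to 2.99 to 14.8 and red blood cells to 1.23 to 75.4. In such bulk tissue, fewer cells of a type and less RNA per cell cannot be told apart.

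**Figure D1:**
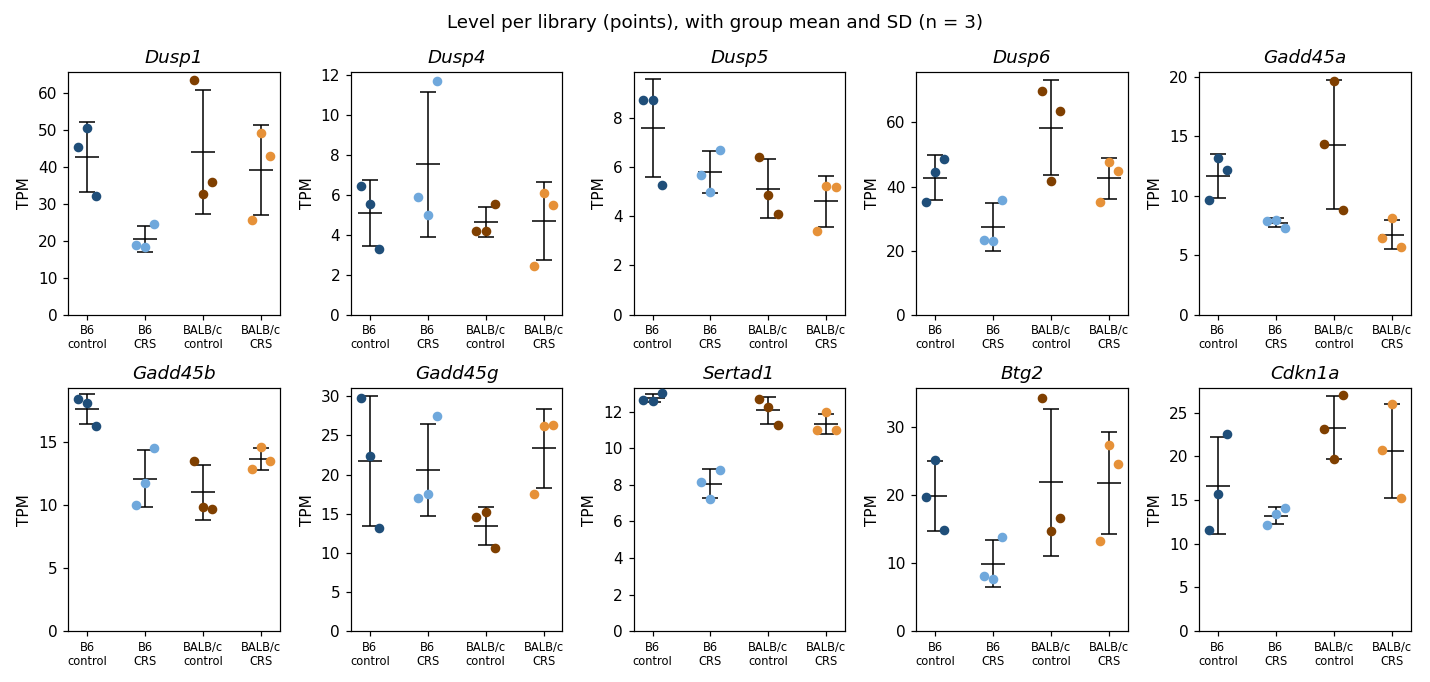
Level of each gene in TPM (vertical axes, starting at 0) in the 4 groups (horizontal axes); points are libraries in order of their number, and bars give the group mean and SD of 3 libraries. The 3 B6 CRS libraries lie below the other 9 for Sertad1, between 7.24 and 8.80 TPM.

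Across the 12 libraries the mean levels ran in the order Dusp6 (42.8 TPM), Dusp1 (36.7), Gadd45g (19.8), Cdkn1a (18.5), Btg2 (18.3), Gadd45b (13.6), Sertad1 (11.1), Gadd45a (10.1), Dusp5 (5.77) and Dusp4 (5.48). The neighbours Dusp6 and Dusp1, the neighbours Gadd45g, Cdkn1a and Btg2, and the pair Dusp5 and Dusp4 differed by less than the SD within most groups. The highest library exceeded the lowest 4.76-fold for Dusp4 and 4.47-fold for Btg2, and 1.80-fold for Sertad1. For Dusp4, Dusp5 and Btg2 the table held a single row. In the other genes the most abundant row carried 56.6% to 100% of the TPM in a library, with the lowest share in Gadd45a.

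The DUSP genes differed in their pattern. Dusp1 encodes a nuclear phosphatase that acts on p38, JNK and ERK. Its level was 45.4, 50.6 and 32.3 TPM in B6 controls and 18.8, 18.3 and 24.6 TPM in B6 CRS, and all 3 stressed libraries lay below all 3 controls. BALB/c levels were 63.5, 32.8 and 36.03 TPM in controls and 25.7, 49.3 and 42.99 TPM after CRS, and the groups overlapped. The B6 mean was 42.8 ± 9.45 TPM in controls and 20.6 ± 3.52 TPM under CRS (SD, n = 3 each), 51.9% lower. The log2 difference (CRS minus control, on the log2(TPM + 1) scale here and below) was -1.01 (SE 0.28) in B6 and -0.15 (SE 0.28) in BALB/c.

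Dusp6, a cytoplasmic phosphatase selective for ERK, measured 35.1, 44.5 and 48.7 TPM in unstressed B6 and 23.2, 23.01 and 35.9 TPM in B6 CRS. B6 CRS 14 reached the range of the controls and the other 2 stressed libraries did not. In BALB/c the values were 69.7, 41.7 and 63.7 TPM in controls and 35.3, 47.6 and 44.8 TPM under CRS, again with overlap. The log2 differences were -0.64 (SE 0.22) and -0.42 (SE 0.22). Both of its most abundant rows had a lower mean after CRS in each strain: the first averaged 29.7 and 19.5 TPM in unstressed and stressed B6 and 42.6 and 30.1 TPM in BALB/c, and the second 12.6 and 7.15 TPM and 14.6 and 11.2 TPM.

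Dusp5, a nuclear phosphatase for ERK, was at 8.69, 8.72 and 5.27 TPM in unstressed B6 and 5.65, 4.999 and 6.68 TPM in B6 CRS. BALB/c controls and CRS libraries had 6.42, 4.87 and 4.07 TPM and 3.404, 5.21 and 5.198 TPM. The groups overlapped in each strain, with log2 differences of -0.32 (SE 0.22) and -0.13 (SE 0.22). Dusp4, another nuclear MAP kinase phosphatase, stood at 6.46, 5.55 and 3.27 TPM in B6 controls and 5.89, 4.98 and 11.7 TPM in B6 CRS. Its highest value of the 12 was in B6 CRS 14. The BALB/c values were 4.21, 4.198 and 5.51 TPM in controls and 2.45, 6.09 and 5.47 TPM under CRS. Of the 10 genes, only Dusp4 had a higher group mean after CRS in B6 (log2 difference 0.44, SE 0.33), and the groups overlapped.

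The 3 GADD45 genes did not share a pattern. Gadd45a, a p53 target that binds MEKK4, measured 9.66, 13.2 and 12.1 TPM in B6 controls and 7.91, 8.001 and 7.31 TPM in B6 CRS. BALB/c libraries had 14.3, 19.7 and 8.83 TPM in controls and 6.46, 8.09 and 5.67 TPM under CRS. It was the only one of the 10 genes whose CRS libraries lay below all controls in both strains, with log2 differences of -0.53 (SE 0.23) and -0.93 (SE 0.23). The BALB/c controls were widely spread, and the BALB/c difference was -0.68 without BALB/c control 9 and -1.21 without BALB/c control 10. Its 2 most abundant rows had lower means after CRS in each strain, 8.49 and 5.35 TPM in B6 and 10.8 and 4.94 TPM in BALB/c for the larger row.

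Gadd45b, an activity-induced member linked to DNA demethylation in neurons, measured 18.5, 18.2 and 16.3 TPM in B6 controls and 10.03, 11.8 and 14.5 TPM in B6 CRS. The stressed libraries lay below the controls. BALB/c mice had 13.5, 9.83 and 9.72 TPM in controls and 12.9, 14.6 and 13.6 TPM under CRS, and the groups overlapped. The log2 difference was -0.52 (SE 0.15) in B6 and 0.30 (SE 0.15) in BALB/c.

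Gadd45g, the third member, stood at 29.7, 22.4 and 13.1 TPM in B6 controls and 16.9, 17.6 and 27.4 TPM in B6 CRS, with nearly equal means (log2 difference -0.034, SE 0.28). The BALB/c levels were 14.5, 15.2 and 10.6 TPM in controls and 17.5, 26.2 and 26.3 TPM under CRS. All 3 stressed BALB/c libraries lay above all 3 controls, the only such case among the 10 genes (log2 difference 0.75, SE 0.28).

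Among the growth arrest genes, Sertad1 had the smallest spread within groups. Sertad1 encodes a regulator of CDK4 and E2F. Its level was 12.7, 12.6 and 13.02 TPM in B6 controls and 8.17, 7.24 and 8.799 TPM in B6 CRS. In the BALB/c groups Sertad1 measured 12.7, 12.3 and 11.3 TPM in controls and 11.03, 11.99 and 10.99 TPM under CRS. The B6 CRS libraries lay below the other 9 libraries, and the BALB/c groups overlapped. The log2 difference was -0.60 (SE 0.11) in B6 and -0.084 (SE 0.11) in BALB/c; the gene was chosen for the first of these values.

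Btg2, an antiproliferative regulator of mRNA decay, measured 19.6, 25.1 and 14.9 TPM in B6 controls and 8.13, 7.68 and 13.9 TPM in B6 CRS, with no overlap. BALB/c controls had 34.3, 14.7 and 16.5 TPM and BALB/c CRS 13.2, 27.4 and 24.5 TPM, with overlap. The log2 differences were -0.95 (SE 0.35) and 0.026 (SE 0.35). Cdkn1a, the p53 target p21, measured 11.6, 15.7 and 22.6 TPM in B6 controls and 12.2, 13.4 and 14.1 TPM in B6 CRS. Its BALB/c levels were 23.2, 19.7 and 27.02 TPM in controls and 20.7, 25.97 and 15.2 TPM under CRS. The groups overlapped in each strain, with log2 differences of -0.26 (SE 0.23) and -0.19 (SE 0.23).

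**Figure D2:**
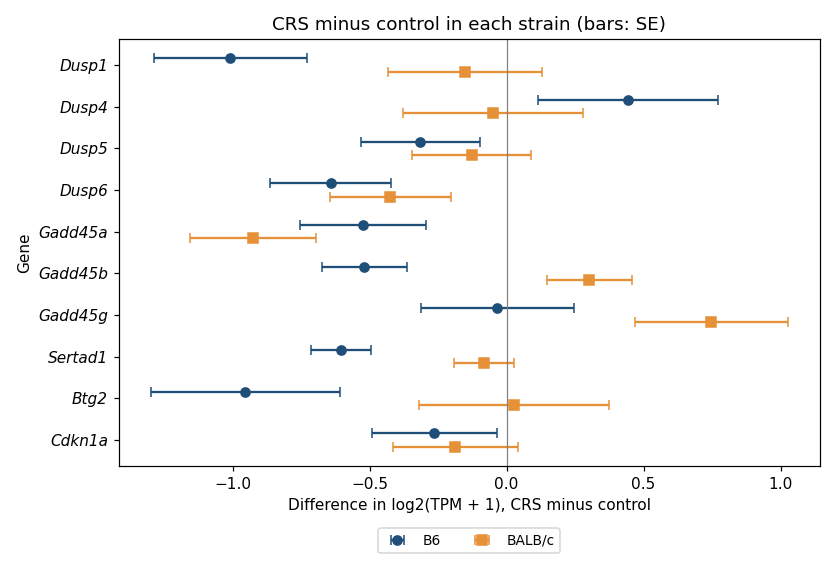
Difference in log2(TPM + 1) between CRS and control (horizontal axis) for each gene (vertical axis) in B6 (circles) and BALB/c (squares); bars are the SE from the model of all 4 groups. In B6, 9 of the 10 points lie below 0, from -1.01 for Dusp1 to -0.034 for Gadd45g, with Dusp4 at 0.44.

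Counted over the 10 genes, B6 CRS lay wholly below B6 controls for Dusp1, Gadd45a, Gadd45b, Sertad1 and Btg2. Over all 16423 tested genes, 3.7% lay wholly below the controls in B6 and 8.33% were separated in either direction. In BALB/c 2 genes were separated, Gadd45a below, beside 2.02% of all tested genes, and Gadd45g above, beside 5.36%, with 7.39% in either direction. The log2 difference was below 0 for 9 of the 10 genes in B6, beside 49.7% of all tested genes, and for 7 in BALB/c, beside 37.4%. The median log2 difference of the 10 genes was -0.52 in B6 and -0.11 in BALB/c, beside 0 and 0.045 over all tested genes. At an adjusted p under 0.05 (limma, Benjamini-Hochberg over all tested genes), 0 of the 10 were called in B6, beside 0% of all genes, and 0 in BALB/c, beside 0.00609%. At an unadjusted p under 0.05, limma gave 792 of all genes in B6 and 497 in BALB/c. Without any effect, a share of 0.05 of the 16423 tested genes would be expected there. Since the genes were picked with these contrasts known, the counts carry no weight of their own.

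The difference between the strains in the CRS effect was 0.98 (SE 0.49) for Btg2, 0.86 (SE 0.40) for Dusp1, 0.82 (SE 0.22) for Gadd45b, 0.78 (SE 0.39) for Gadd45g and 0.52 (SE 0.15) for Sertad1, each less negative or more positive in BALB/c. For Dusp4 and Gadd45a it was -0.49 (SE 0.46) and -0.40 (SE 0.32). Dusp6, Dusp5 and Cdkn1a lay between 0.077 and 0.22. By limma's test of the interaction, 0 of the 10 genes and 0% of all tested genes passed, and the adjusted p was 1 for each of the 10, so no strain difference in the response was established. At an unadjusted p under 0.05 the same test gave 443 of all genes, beside the same expected share of 0.05. The interaction holds the stress differences that were known when the genes were chosen, those of Sertad1 in B6 and Gadd45a in BALB/c among them, so it is not independent of the choice.

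Between unstressed strains, Gadd45b was the gene that passed the test. It was lower in BALB/c controls, 11.03 ± 2.18 TPM, than in B6 controls, 17.7 ± 1.17 TPM (SD, n = 3 each), and the highest BALB/c library, at 13.5 TPM, lay below the lowest B6 library, at 16.3 TPM. On the log2 scale BALB/c minus B6 was -0.65, with an SE of 0.15 and an adjusted p of 0.0335 by limma. The B6 control libraries also entered the stress contrast in B6, known when the genes were chosen. This call is therefore not independent of the choice. Gadd45b was 1 of 10 genes, beside 4.73% of all tested genes called in controls and 3.37% called lower. Groups were separated for 1 of 10, beside 22.9% of all genes and 18.7% in the same direction, so the count does not set the 10 genes apart. Relative to the median of all genes, which was -0.10, the difference was smaller, and median-of-ratios scaling gave -0.53 (adjusted p 0.0358, limma). That scaling changed the balance of calls over all genes from 224 higher and 553 lower in BALB/c to 328 and 392 in controls, and from 389 and 875 to 650 and 747 under CRS. The call was lost without any 1 of B6 control 2, B6 control 3, BALB/c control 9, BALB/c control 10 or BALB/c CRS 15 (adjusted p 0.112, 0.104, 0.112, 0.151 and 0.0506, limma), the log2 difference staying between -0.79 and -0.57 over the 12 fits that each left out 1 library. The call was also lost when the model held the striatal or the myelin score (mean log2 level of the markers) as a covariate, with limma adjusted p of 0.0892 and 0.305, where the difference was -0.66 and -0.63.

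The other 9 genes did not pass between controls. Sertad1 had the narrowest 95% interval, -0.31 to 0.16 on the log2 scale around -0.074. Intervals were -0.60 to 0.62 for Dusp1, -0.69 to 0.81 for Btg2, -0.80 to 0.64 for Dusp4 and -0.29 to 0.72 for Gadd45a, so the data leave room for differences up to these bounds. Dusp6 and Cdkn1a were higher in BALB/c by 0.42 and 0.50, and Dusp5 and Gadd45g lower, at -0.47 and -0.60 (adjusted p 0.342, 0.265, 0.267 and 0.276, limma). Without B6 control 9, Gadd45g was called as well (log2 difference -0.91, adjusted p 0.0454, limma).

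Between the stressed strains, Sertad1 passed the test. It was higher in BALB/c CRS, 11.3 ± 0.567 TPM, than in B6 CRS, 8.07 ± 0.785 TPM (SD, n = 3 each), without overlap. On the log2 scale BALB/c exceeded B6 by 0.45, with an SE of 0.11 and an adjusted p of 0.0292 by limma. The B6 CRS libraries also entered the contrast for which Sertad1 was chosen, so this call is not independent of the choice. It was 1 of 10 genes, beside 7.7% of all tested genes called and 2.37% called higher. Groups were separated for Dusp1, Sertad1 and Cdkn1a, all higher in BALB/c, beside 29.3% of all genes and 9.29% in that direction. The call was lost without B6 CRS 12, B6 CRS 13, BALB/c CRS 12, BALB/c CRS 13 or BALB/c CRS 15 (adjusted p 0.0915, 0.103, 0.056, 0.0923 and 0.0623, limma), with log2 differences from 0.38 to 0.50 over 12 such fits. With the striatal and the myelin score as covariates it was 0.41 and 0.44 (adjusted p 0.406 and 0.34, limma).

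Btg2, Dusp1, Dusp6 and Cdkn1a were also higher in BALB/c under CRS, by 1.04 (SE 0.35), 0.86 (SE 0.28), 0.64 (SE 0.22) and 0.58 (SE 0.23), and did not pass (adjusted p 0.0884, 0.0821, 0.101 and 0.146, limma). Mean Dusp1 was 20.6 ± 3.52 TPM in B6 CRS and 39.3 ± 12.2 TPM in BALB/c CRS (SD, n = 3 each), and every BALB/c library exceeded every B6 library. With median-of-ratios scaling, Dusp1, Dusp6 and Btg2 were called beside Sertad1 (adjusted p 0.037, 0.0321 and 0.0475, limma). Without BALB/c CRS 12, Dusp1 was called at 1.14 (adjusted p 0.0472, limma), and without B6 CRS 14 Dusp6 was called at 0.84 (adjusted p 0.0479, limma). Dusp4 was lower in BALB/c by the group means (-0.57, adjusted p 0.32, limma), and Dusp5, Gadd45a, Gadd45b and Gadd45g lay between -0.28 and 0.18.

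**Figure D3:**
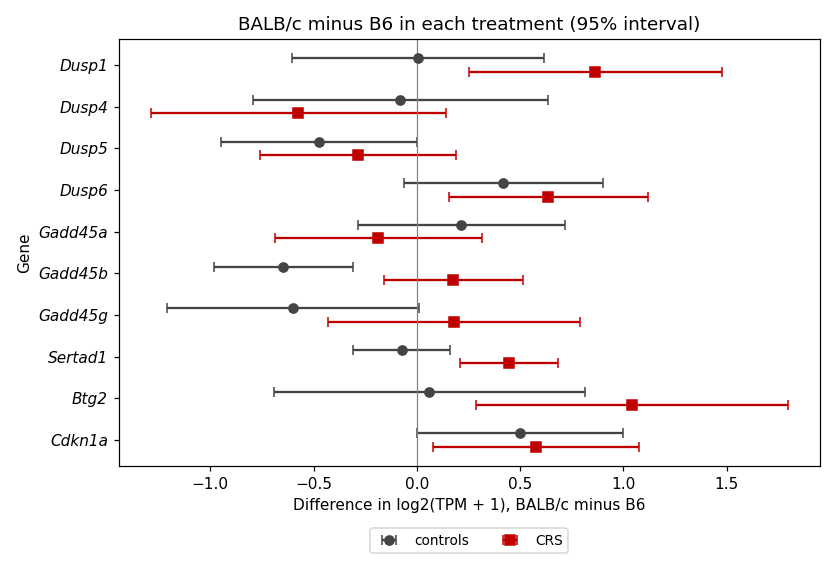
Difference in log2(TPM + 1) between BALB/c and B6 (horizontal axis) for each gene (vertical axis) in controls (circles) and under CRS (squares); bars are 95% intervals from the model of all 4 groups, not adjusted for the number of genes. Gadd45b lies at -0.65 in controls and 0.18 under CRS, and Sertad1 at -0.074 and 0.45.

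Several marker scores and some of the 10 genes ran in order over the 3 B6 controls. With 3 libraries such an order can arise without any relation, and its share over all tested genes was not counted. In B6 controls the striatal score, the mean log2(TPM + 1) of the 9 markers, was 7.69, 5.21 and 3.83. Gadd45g (29.7, 22.4 and 13.1 TPM), Dusp4 (6.46, 5.55 and 3.27 TPM) and Gadd45b (18.5, 18.2 and 16.3 TPM) had the same order over these 3 libraries. Cdkn1a (11.6, 15.7 and 22.6 TPM) and Dusp6 (35.1, 44.5 and 48.7 TPM) had the reverse order. The myelin (9.90, 9.16 and 8.01), astrocyte, oligodendrocyte precursor, microglia and red blood cell scores ran in the same order as the striatal score, and excitatory neurons had the reverse order (5.24, 6.14 and 6.40). In B6 CRS the striatal score was 7.37, 7.04 and 6.18. There Gadd45g (16.9, 17.6 and 27.4 TPM) and Gadd45b (10.03, 11.8 and 14.5 TPM) ran opposite to it. Cdkn1a (12.2, 13.4 and 14.1 TPM) again had the reverse order. Dusp4 (5.89, 4.98 and 11.7 TPM) and Dusp6 (23.2, 23.01 and 35.9 TPM) were highest where the score was lowest. The part of these scores in the values was not tested one against another. With the striatal score as a covariate, the strain difference under CRS was 0.018 for Dusp6 in place of 0.64, -0.16 for Cdkn1a in place of 0.58, and 0.85 for Gadd45g in place of 0.18. The B6 CRS differences of Dusp1, Gadd45a, Gadd45b, Sertad1 and Btg2 were -1.04, -0.54, -0.51, -0.59 and -0.91 with the covariate, beside -1.01, -0.53, -0.52, -0.60 and -0.95 without it. For Dusp6 in B6 the value was -0.39 beside -0.64, and for Cdkn1a 0.031 beside -0.26.

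The 10 genes did not move as 1 block across libraries, and Dusp1 and Btg2 ran closest together. After each gene was standardised over the 12 libraries, the root mean square difference between Dusp1 and Btg2 was 0.210 SD units. The next closest neighbours were Sertad1 to Dusp1, at 0.559, and Dusp6 to Btg2, at 0.600, while Gadd45a was 0.946 from its nearest, Sertad1. Both Dusp1 and Btg2 were highest in BALB/c control 5, at 63.5 and 34.3 TPM, and lowest in B6 CRS 13, at 18.3 and 7.68 TPM. Gadd45a and Gadd45b, which share a family, gave no such line: BALB/c control 9 had the highest Gadd45a of the 12, 19.7 TPM, with a low Gadd45b of 9.83 TPM.

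**Figure D4:**
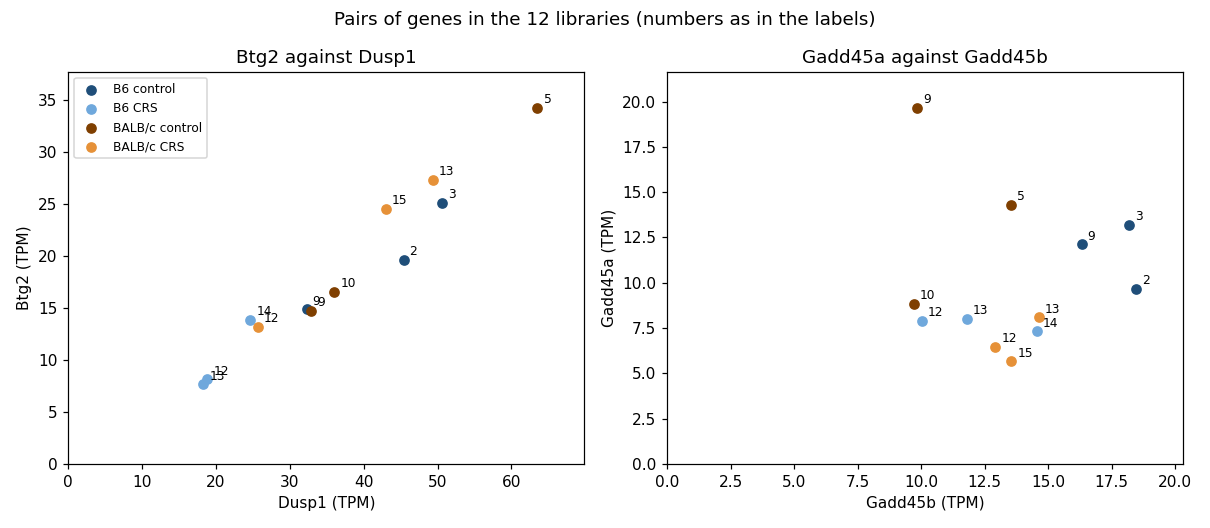
Btg2 against Dusp1 (left) and Gadd45a against Gadd45b (right), in TPM on axes starting at 0; points are the 12 libraries, coloured by group and numbered as in the labels. Btg2 and Dusp1 rise together from 7.68 and 18.3 TPM in B6 CRS 13 to 34.3 and 63.5 TPM in BALB/c control 5, while the points of the GADD45 pair are scattered.

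Against the average standardised profile of the 10 genes over the 12 libraries, the 5 closest other genes with a mean of at least 5 TPM were Fos, Nr4a1, Junb, Kctd20 and Arc, at root mean square differences of 0.348, 0.406, 0.437, 0.439 and 0.455 SD units. Fos, Nr4a1 and Junb encode activity-induced transcription factors and Arc a synaptic protein. Their group means are given in the order B6 controls, B6 CRS, BALB/c controls and BALB/c CRS. These were 42.3, 12.5, 42.4 and 32.7 TPM for Fos and 95.3, 41.2, 79.1 and 69.5 TPM for Nr4a1. For Junb the means were 102.5, 49.7, 82.3 and 68.7 TPM, and for Arc 104.4, 37.5, 83.2 and 60.9 TPM. Kctd20 varied little, with means of 30.2, 26.5, 29.7 and 28.1 TPM. Of the members themselves, Dusp1 (0.356) and Btg2 (0.390) were nearest to the average, and Dusp4 (1.23) was farthest.

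The wider pathway was described from lists of its other genes. Of 6 further MAP kinase phosphatases 4 were tested (Dusp7, Dusp8, Dusp10 and Dusp16). Of these, 0 were called in any contrast (limma), beside 4.73% of all tested genes between strains in controls and 7.7% under CRS. In the other contrasts at most 0.00609% of all tested genes were called. The log2 differences of the 4 phosphatases for CRS lay between -0.23 (Dusp10) and 0.046 (Dusp8) in B6 and between -0.098 (Dusp7) and 0.12 (Dusp10) in BALB/c. The 13 genes of the ERK cascade had a median of -0.042 in B6, from -0.30 (Nras) to 0.17 (Mapk3), and of 0.034 in BALB/c, from -0.12 (Rps6ka1) to 0.32 (Mapk3). The 13 genes of the JNK and p38 cascades had medians of -0.071 and -0.021, with extremes of -0.50 (Mapk11) and 0.14 (Map2k7) in B6 and of -0.22 (Map2k6) and 0.11 (Map2k4) in BALB/c. The 9 tested Sprouty, Spred and other ERK inhibitors had medians of -0.067 and -0.029, from -0.26 (Errfi1) to 0.11 (Spry1) in B6 and from -0.27 (Spry2) to 0.14 (Nf1) in BALB/c. None of these kinase and inhibitor genes was called in any of the 6 contrasts (limma), beside the same shares of all tested genes. The value farthest from 0 among these kinase and inhibitor genes for CRS in B6 was -0.50, beside -1.01 for Dusp1. Dusp1 was chosen with this contrast known, so these values do not stand on equal terms.

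Stress values of the relatives of Sertad1 and Btg2 are given as a description, since Sertad1 was chosen for its stress difference in B6. The 7 tested SERTAD and BTG/TOB relatives had a median log2 difference for CRS of 0.15 in B6, from -0.17 (Tob1) to 0.48 (Btg3), and of 0.20 in BALB/c, from -0.025 (Btg1) to 0.36 (Tob1). Of these, 1 of 7 was called under CRS, beside 7.7% of all tested genes, and 0 in controls, beside 4.73%. Sertad4 was lower in BALB/c under CRS, 5.27 ± 1.29 against 11.1 ± 2.07 TPM (SD, n = 3 each; log2 difference -0.95, adjusted p 0.0301, limma). The 13 p53 targets and CDK inhibitors had medians of 0.00049 and 0.089 for CRS, with extremes of -0.34 (Phlda3) and 0.15 (Sesn1) in B6 and of -0.18 (Cdkn2c) and 0.56 (Bbc3) in BALB/c. Of the 13, 2 were called between strains in controls, beside 4.73% of all tested genes, and 3 under CRS, beside 7.7%. In controls, Trp53inp1 and Bbc3, 2 p53 targets that promote cell death, were lower in BALB/c (-0.68 and -0.75, adjusted p 0.0217 and 0.0377, limma). Under CRS, Cdkn1c, an imprinted CDK inhibitor, was higher in BALB/c (1.14), and Sesn1 and Cdkn2c were lower (-0.44 and -0.88; adjusted p 0.0305, 0.0312 and 0.0337, limma). The 18 other early response genes had a median of -0.63 in B6 (from Fos, -1.68, to Ppp1r15a, 0.13), with 16 below 0, beside 49.7% of all tested genes. In BALB/c their median was -0.24 (from Egr1, -0.62, to Npas4, 0.34), with 15 below 0, beside 37.4%. This list too was chosen with earlier results of these data known, so its stress values are a description. Of the 18, 0 were called between strains in controls, beside 4.73% of all tested genes, and 1 under CRS, beside 7.7%. This was Npas4, 18.4 ± 5.33 TPM in BALB/c and 6.69 ± 0.594 TPM in B6 (SD, n = 3 each; log2 difference 1.30, adjusted p 0.0171, limma). The calls of listed genes in this paragraph are from the fit without covariates, and other fits are not reported here for them. Over all genes, the calls under CRS were 1264 in that fit, 236 with the striatal score as covariate and 253 with the myelin score. In controls they were 777, 519 and 289.

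In GENCODE M21 (GRCm38) Gadd45b lies on chromosome 10 from 80930073 to 80932204 (plus strand) and Sertad1 on chromosome 7 from 27486910 to 27490316 (plus strand), and neither shares exonic bases with a gene on the other strand. Dusp1, Dusp5, Gadd45a and Cdkn1a do, with Ergic1, AC137853.2, E230016M11Rik and AC167363.2. The library kit keeps strand, but the sources used here do not state whether strand was used in quantification, so the values of those 4 genes carry that uncertainty. Only the longest transcript of each gene was compared. Among these, no other gene matched any of the 10 at 95% identity or more along 80% or more of the shorter transcript.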

How the data were processed

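Per the labels' protocols, the 12 stranded mRNA libraries had paired reads of 150 bp, with roughly 6 Gb for each. The authors deposited TPM values in a single table of 147902 rows with 1 column per library; the unit was read from column sums of 1000000. The submitters' processing notes name cutadapt 2.9, Salmon and GRCm38; the annotation is not given in the sources used here. No column was without a sample (0) and no pair of columns was identical (0).

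Rows were summed per gene name. Names that reached 1 TPM in 3 or more libraries were kept, and tested on log2(TPM + 1) with limma 3.58.1 (R 4.3.3): 4 group means, 8 residual degrees of freedom, eBayes with intensity trend, Benjamini-Hochberg adjustment over 16423 genes, called under 0.05. Fold changes on this scale understate the change of low genes. All 12 libraries entered each fit. Intervals are limma's 95% intervals. The method was also run on simulated data in which genes varied independently. Such data lack the tissue variation shared by genes in these libraries, so that run cannot vouch for the calls here.

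Genes named are the 10 members, listed pathway genes called between strains, the extremes of each list for CRS, and the 5 nearest patterns by a distance rule. The members and lists (7 pathway lists, 11 marker lists) were chosen with earlier results of these data known. Promoters are from RefSeq (GRCm38.p6), positions and overlaps from GENCODE M21, and transcript similarity from blastn 2.17.0. Alternatives were a pseudocount of 0.1, other filters, 2 other scalings, striatal or myelin scores as covariates, no trend, a replicate block and leaving out each library.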

Additional observations from a re-analysis of the deposited data

How the results depend on the processing

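For stress against control in either strain, for the average and for the interaction, 0 of the 10 genes were called under any alternative run. The number called between strains, 1 in controls (Gadd45b) and 1 under CRS (Sertad1), did vary. In controls it was 0 with no filter on low values, with the striatal score, with the myelin score and with the replicate block, and 0 to 2 when 1 library was left out. Under CRS it was 4 with median-of-ratios scaling, 3 after rescaling without mitochondrial, ribosomal RNA and Bc1 rows, 0 with the striatal score, with the myelin score and with the replicate block, and 0 to 2 when 1 library was left out. Gadd45b in controls kept its direction in all 21 alternatives and was past the threshold in 5 of 9 and 7 of 12 of them; its adjusted p was 0.0616 without the filter (limma). Sertad1 under CRS kept its direction in all 21 and was past it in 6 of 9 and 7 of 12. Over all genes, 777 were called in controls and 1264 under CRS; these counts were 437 and 702 with a mean of 5 TPM or more, 519 and 236 with the striatal score, and 289 and 253 with the myelin score.

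The replicate block used the numbers shared between strains (number 9 for the controls, numbers 12 and 13 for stressed mice), which the labels do not tie to a litter or day. Deviations of same-numbered libraries had correlations of -0.242, -0.0293 and -0.0361 over genes, so the numbers were not taken as pairs. With the block, Gadd45b differed by -0.65 (adjusted p 0.0531, limma) and Sertad1 by 0.45 (adjusted p 0.0744, limma), and the calls over all genes were 565 in controls in place of 777 and 750 under CRS in place of 1264.

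Differences that changed sign were not past the threshold. For stress against control they were, in B6, Gadd45g with the replicate block (0.16) and Cdkn1a with the striatal score (0.031), and in BALB/c, Dusp4 with the replicate block (0.26) and Btg2 with median-of-ratios scaling (-0.026). For the interaction with the striatal score these were Dusp6 (-0.10) and Cdkn1a (-0.30). In controls they were Dusp4 with median-of-ratios scaling (0.018), the striatal score (0.045) and the myelin score (0.012), and Sertad1 with the 2 scalings (0.037 and 0.014). Under CRS they were Dusp5 with the striatal and myelin scores (0.050 and 0.029), Gadd45a with the myelin score (0.21) and Cdkn1a with the striatal score (-0.16). Leaving out 1 library gave ranges that crossed 0 for stress in B6 for Gadd45g (-0.34 to 0.22), for stress in BALB/c for Dusp1 (-0.34 to 0.14), Dusp4 (-0.25 to 0.27), Dusp5 (-0.25 to 0.037), Btg2 (-0.20 to 0.39) and Cdkn1a (-0.36 to 0.0047), for the interaction of Dusp6 (-0.0029 to 0.42) and Cdkn1a (-0.16 to 0.30), and in controls for Dusp1 (-0.28 to 0.18), Dusp4 (-0.32 to 0.086), Gadd45a (-0.036 to 0.50) and Btg2 (-0.30 to 0.28). The cause was not tested.

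Each strain and treatment had 3 libraries, TPM keeps no depth, and the scores used as covariates differ between the strains themselves, so strain and tissue composition cannot be told apart. Within B6 the striatal markers had a median sum of 490 TPM in controls and 1827 TPM under CRS, with overlap. Stress and tissue composition cannot be told apart there either.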
